A study of Mus musculus with 6 samples.

Results

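The genes examined were 10 mouse genes for heterogeneous nuclear ribonucleoproteins (hnRNPs): Hnrnpa1, Hnrnpa2b1, Hnrnpc, Hnrnpd, Hnrnpdl, Hnrnph1, Hnrnpk, Hnrnpl, Hnrnpm and Hnrnpu. They were taken by symbol from the 15939 gene IDs listed in the files, and all 10 were listed in each of the 6 libraries. The libraries came from total RNA of the nucleus accumbens, the ventral part of the striatum, of C57BL/6N mice. In 3 libraries (morphine replicates 4, 5 and 6) the mice had been injected with morphine during conditioned place preference training, in which a drug is paired with 1 side of a test box. In the other 3 libraries (saline replicates 1, 2 and 3) the mice had been trained with saline injections. The design text gives 6 mice a group but not how they were divided among the libraries, so the tests below measure the spread between libraries. Not given in the sources used here are the dose, the number of training days, and the age and sex of the mice.

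hnRNPs coat nascent transcripts in the nucleus and steer splicing, 3′ end formation, export and decay. Most carry RNA recognition motifs or KH domains, and several end in a long glycine-rich tail that mediates contacts between proteins. Many of their own transcripts are alternatively spliced, and some family members lower their own protein by splicing their pre-mRNA into forms that are removed by nonsense-mediated decay (NMD), which destroys transcripts with an early stop codon. hnRNP H1 has been tied in human cells to the splicing of the mu opioid receptor transcript, and its gene in mice to the locomotor response to methamphetamine.

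Each deposited file is a catalogue of alternative events in the transcripts assembled from 1 library. An event is a first exon, a last exon, a skipped exon, a retained intron or an exon with alternative ends, read from the type code, the gene and the splice positions. For each gene, the distinct events in each library were counted. The number describes kinds of transcript structure and is no expression level: neither reads nor usable abundances stand behind it, so how often a form was used is not known. An event absent from a catalogue was not listed there, which does not show that the transcript was absent from the tissue. In bulk tissue, a change in the number of cells of a type and a change in the RNA of each cell cannot be told apart.

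The catalogues held 142 distinct events in the 10 genes, of which 40 were listed in all 6 libraries. Printed here are 9 alternatives whose stretch is coding in the GENCODE M21 annotation (GRCm38) and a whole number of codons long. They were chosen because they separate the protein forms for which several of these genes are known. Each is read 5′ to 3′ on the coding strand from the annotated transcripts, with the alternative stretch in capitals and 15 bases of the neighbouring exon sequence on each side in lower case.
Hnrnpa2b1 exon 2, chr6:51467391-51467426 (minus strand): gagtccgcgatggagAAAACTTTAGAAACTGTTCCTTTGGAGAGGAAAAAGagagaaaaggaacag
Hnrnpa2b1 exon 9, chr6:51464428-51464547 (minus strand): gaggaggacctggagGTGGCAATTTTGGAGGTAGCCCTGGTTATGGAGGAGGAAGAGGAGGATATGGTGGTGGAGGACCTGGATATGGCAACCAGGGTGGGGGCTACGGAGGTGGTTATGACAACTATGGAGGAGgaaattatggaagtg
Hnrnpd exon 2, chr5:99976534-99976590 (minus strand): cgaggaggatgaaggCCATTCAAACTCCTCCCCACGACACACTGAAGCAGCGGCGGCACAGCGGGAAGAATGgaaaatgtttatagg
Hnrnpd exon 7, chr5:99963731-99963877 (minus strand): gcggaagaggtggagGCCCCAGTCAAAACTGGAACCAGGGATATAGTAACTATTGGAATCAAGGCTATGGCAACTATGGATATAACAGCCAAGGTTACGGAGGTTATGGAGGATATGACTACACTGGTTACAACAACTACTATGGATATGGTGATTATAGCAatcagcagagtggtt
Hnrnpc long end of exon 4, chr14:52081789-52081827 (minus strand): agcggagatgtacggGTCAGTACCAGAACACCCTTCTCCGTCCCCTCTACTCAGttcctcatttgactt
Hnrnpk exon 7, chr13:58396188-58396259 (minus strand): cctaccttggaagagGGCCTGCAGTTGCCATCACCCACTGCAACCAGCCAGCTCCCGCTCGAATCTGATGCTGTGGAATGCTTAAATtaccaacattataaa
Hnrnph1 exon 11, chr11:50383831-50383920 (plus strand): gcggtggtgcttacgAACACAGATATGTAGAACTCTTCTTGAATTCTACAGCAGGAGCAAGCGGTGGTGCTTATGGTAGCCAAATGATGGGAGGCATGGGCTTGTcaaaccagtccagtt
Hnrnpl retained stretch in exon 7, chr7:28818533-28818643 (plus strand): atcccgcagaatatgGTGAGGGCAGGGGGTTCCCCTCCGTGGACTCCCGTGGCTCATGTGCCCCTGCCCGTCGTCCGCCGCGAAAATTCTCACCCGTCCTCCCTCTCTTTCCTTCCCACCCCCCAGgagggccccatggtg
Hnrnpm retained stretch in exon 6, chr17:33666530-33666646 (minus strand): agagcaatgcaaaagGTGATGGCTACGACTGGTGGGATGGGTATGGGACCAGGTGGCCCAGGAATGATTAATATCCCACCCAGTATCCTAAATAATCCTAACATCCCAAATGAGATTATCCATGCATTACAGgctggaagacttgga

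Exon 2 of Hnrnpa2b1 (36 nt) adds the short N-terminal stretch of B1 that A2 lacks, and exon 9 (120 nt) lies in the glycine-rich tail. Exons 2 (57 nt) and 7 (147 nt) of Hnrnpd are the alternative exons that make the isoforms of AUF1, a protein that binds AU-rich elements in mRNAs. The 39 nt at the end of exon 4 of Hnrnpc separate hnRNP C2, which has them, from C1. Exon 11 of Hnrnph1 (90 nt) is coding, but no annotated transcript joins the splice sites on its sides directly. That skipped form thus had no annotated match at these exact splice sites. The annotation also holds another end of the exon in front. Whether an annotated transcript skips exon 11 from a shifted splice site was not tested. The alternative stretches in Hnrnpl (111 nt) and Hnrnpm (117 nt) are introns inside an annotated coding exon: both begin with GT and end with AG, and both are a multiple of 3 long. The GC content of the 9 stretches ran from 33.3% in Hnrnpa2b1 exon 2 to 67.6% in the retained stretch of Hnrnpl.

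Of these 9 alternatives, 5 were listed in all 3 morphine and all 3 saline libraries: Hnrnpd exon 7, the Hnrnpc exon end, Hnrnpk exon 7 and the retained stretches of Hnrnpl and Hnrnpm. Hnrnpd exon 2 was listed in 2 morphine libraries (replicates 5 and 6) and 3 saline libraries. Hnrnph1 exon 11 was listed in 3 morphine and 2 saline libraries (replicates 1 and 3). Exon 2 of Hnrnpa2b1 was listed in 1 morphine library (replicate 4) and in saline replicates 2 and 3, and exon 9 in no morphine library and in saline replicates 2 and 3. None of the 9 separated the morphine libraries from the saline libraries.

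**Figure D1:**
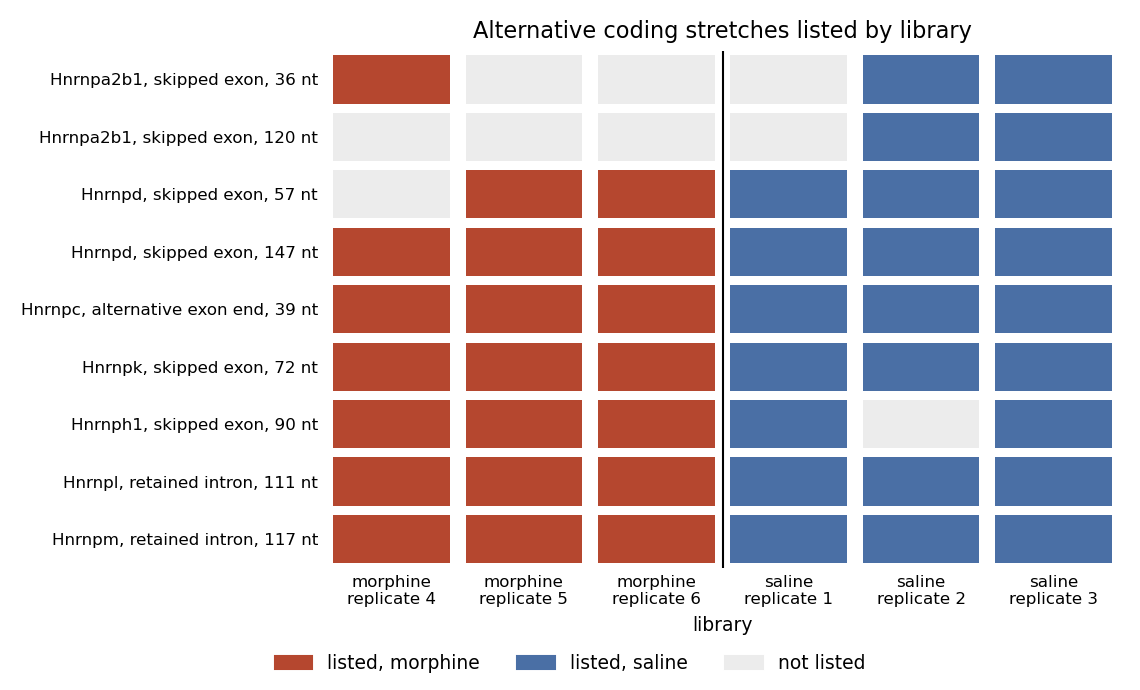
Listing of the 9 coding alternatives by library. Rows are the alternative stretches with their length in nucleotides, columns are the libraries, and a filled cell (red for morphine, blue for saline) marks a stretch listed as alternative in that library; 5 of the 9 rows are filled across all 6 libraries.

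In the morphine libraries the 10 genes together held 66, 76 and 80 distinct events, against 64, 74 and 71 in the saline libraries, so the groups overlapped. All genes together held 57981, 56546 and 56416 events in the morphine libraries and 58007, 54641 and 57132 in the saline libraries. The hnRNP genes were rich in events: their median was 8.17 a library, against 2.67 over the 15040 genes tested. Hnrnpc, Hnrnpd and Hnrnpl had more events than 95.0%, 94.4% and 94.4% of those genes, while Hnrnpa1, with 3 events in every library, had more than 53.2%. All 10 genes passed the filter of a mean of at least 0.5 events.

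None of the 10 genes differed between morphine and saline at an adjusted p under 0.05 in limma, which called 96 of the 15040 genes (0.638%). At an unadjusted p under 0.05, 1 of the 10 genes (Hnrnph1) passed, against 3.19% of all genes. The log2 ratio of events, morphine over saline with 0.5 added to each count, was positive in 4 of the 10 genes, negative in 5 and 0 in 1 (Hnrnpa1). Their median was -0.08, against 0 over all genes, of which 33.2% had a positive ratio. In 1 of the 10 genes, Hnrnph1, all 3 morphine counts lay above all 3 saline counts, which held for 1.64% of all genes tested, and in 0 of the 10 all morphine counts lay below, which held for 1.43% (either direction, 3.07%). Class by class, the first exons of 0 of the 10 genes lay apart, against 0.496% of genes above saline and 0.874% below. The same was true of skipping (1.11% above, 1.62% below), retention (4.66% above, 1.31% below) and alternative ends (1.29% above, 1.39% below). These shares were taken over 3343, 2986 and 2796 genes, those that passed the filter within the class. Hnrnpdl, Hnrnpl and Hnrnpu failed it for skipping, and Hnrnpa1, Hnrnpc, Hnrnpdl and Hnrnpk for retention. For alternative ends, Hnrnpa1, Hnrnpm and Hnrnpu failed it. Fewer than 10 hnRNP genes can thus be set against each of these shares. Last exons lay apart in 1 of the 10, Hnrnpdl, below saline. The exact two-sided permutation test cannot give a p under 0.1 with 3 libraries against 3, and after adjustment over all genes its smallest p was 1.

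**Figure D2:**
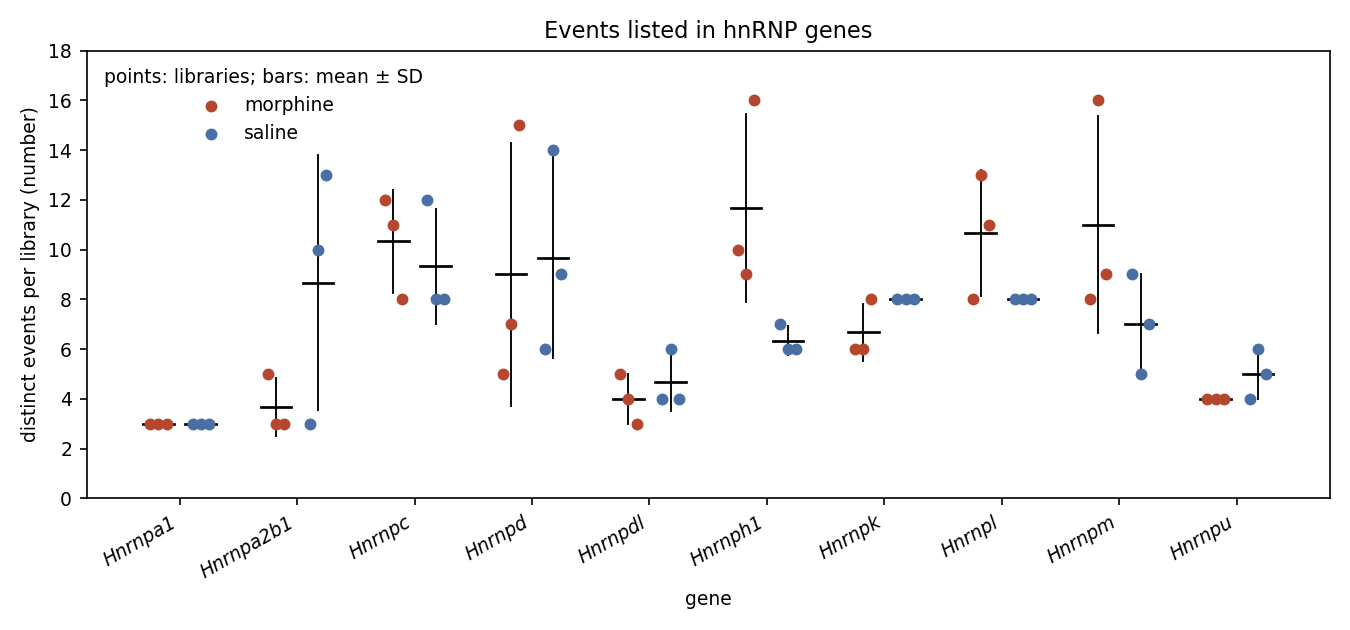
Distinct events per library in each hnRNP gene. Each point is 1 library (red morphine, left; blue saline, right), the horizontal bar is the mean and the vertical line the SD of 3 libraries; Hnrnph1 is the gene whose morphine points (9 to 16 events) all lie above its saline points (6 or 7 events).

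Hnrnph1 (ENSMUSG00000007850, chr11:50376990-50386528, plus strand) encodes hnRNP H1, which binds runs of G in pre-mRNA and can act as a splicing enhancer or silencer. It had 10, 9 and 16 events in the morphine libraries, against 7, 6 and 6 in the saline libraries. The groups did not overlap, and morphine replicate 6 stood highest. The means were 11.7 ± 3.79 events in morphine and 6.33 ± 0.577 in saline (SD, n = 3 each). The log2 ratio was 0.79 with a standard error of 0.244 in limma, and its p of 0.0269 became 0.905 after adjustment over all genes. The exact permutation p was 0.1, the smallest that 3 libraries against 3 allow.

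Most of the added events of Hnrnph1 lay inside the gene. Events other than first and last exons numbered 6, 5 and 12 in the morphine libraries, against 3 in each saline library. Intron retention events numbered 2, 3 and 4 in the morphine libraries and 1, 2 and 1 in the saline libraries, which overlapped (exact permutation p = 0.2, n = 3 each). Alternative exon ends numbered 2, 0 and 6 in the morphine libraries and 0 in each saline library (exact permutation p = 0.4, n = 3 each). First and last exons together numbered 4 in each morphine library, against 4, 3 and 3 in the saline libraries. No single event accounted for the higher counts: none of the 18 Hnrnph1 events was listed in every morphine library and in no saline library.

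The same assembled exon can be listed under several codes, so the exons were counted too. The internal events of Hnrnph1 came from 5, 4 and 9 distinct exons in the morphine libraries and from 3 in each saline library. Exons listed in both groups were a 50 nt coding exon (chr11:50385141-50385190), listed as skipped in all 6 libraries, and a 2895 nt exon (chr11:50379821-50382715) that keeps the introns between annotated exons and is itself annotated in a processed transcript without a reading frame. The coding exon 11 printed above belongs to this set in all libraries but saline replicate 2. A 241 nt exon (chr11:50383680-50383920) that keeps the 91 nt intron in front of exon 11 was listed in morphine replicates 4 and 6 and in saline replicate 2. Long exons that begin at chr11 position 50379468 and run over annotated introns were listed in morphine libraries: 1 of 3248 nt in replicate 5 and 1 of 2130 nt in replicate 6. These events were described after their values were seen.

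The difference in Hnrnph1 rested in part on events that the annotation does not hold. With annotated events alone, a count chosen after seeing the data, Hnrnph1 had 8, 7 and 10 events in the morphine libraries, against 7, 5 and 6 in the saline libraries, and the groups overlapped (exact permutation p = 0.2, n = 3 each). Without morphine replicate 6 the log2 ratio was 0.55, and the groups stayed apart, as they must when a library is left out. Among the tissue markers, the summed events of 7 ependymal and choroid plexus genes were also split by group, with 18, 23 and 22 in the morphine libraries and 24, 29 and 26 in the saline libraries. Folr1 was listed in 2 libraries and the other 6 in all. Ccdc39 carried the split: without it the 6 others summed to 10, 14 and 11 in the morphine libraries and 12, 10 and 12 in the saline libraries, which overlapped. The part of these cells in the Hnrnph1 counts was not tested.

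**Figure D3:**
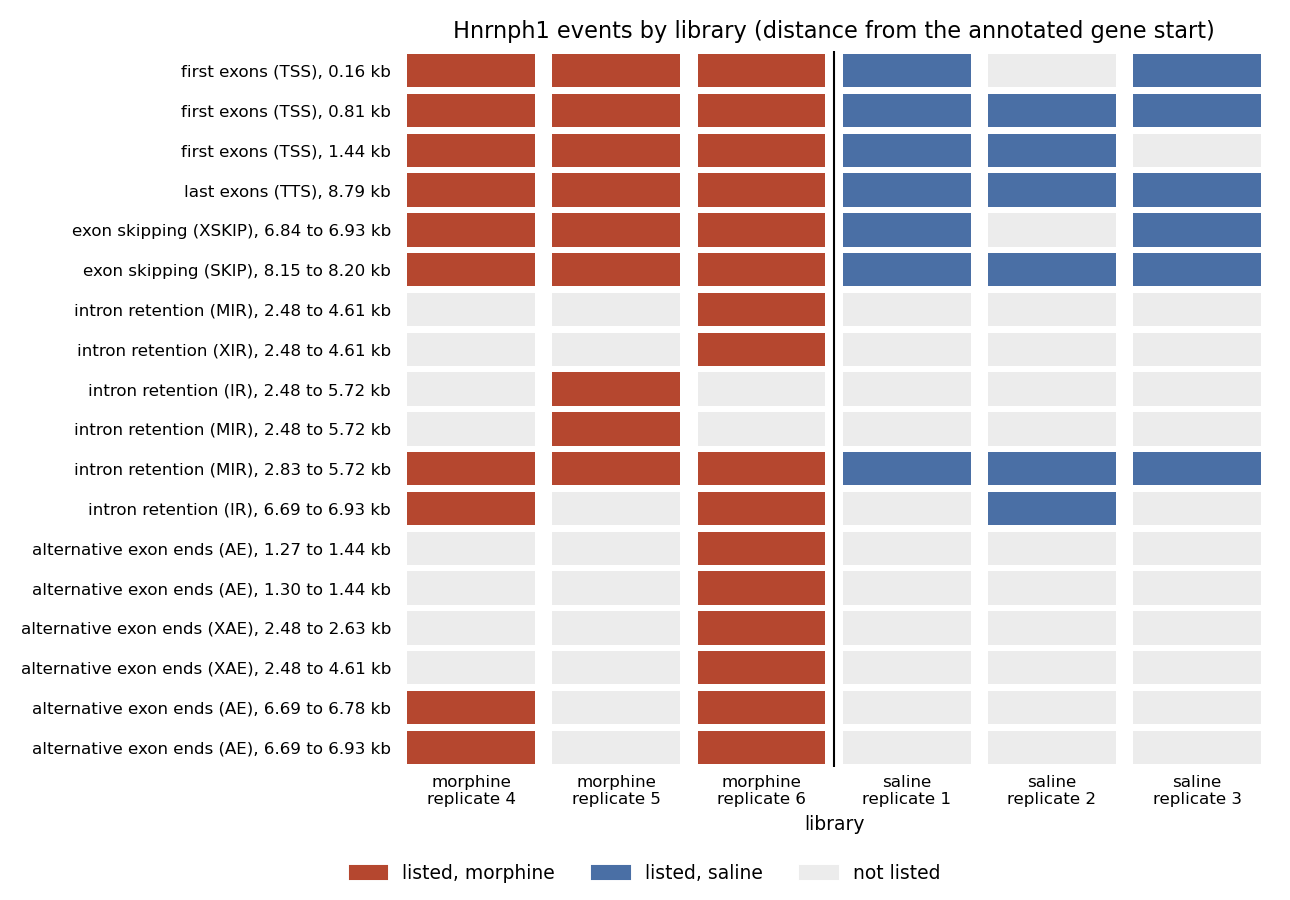
The 18 events of Hnrnph1 by library. Rows are events with their class, type code and distance in kb from the annotated gene start, columns are libraries, and filled cells (red morphine, blue saline) mark a listed event; morphine replicate 6 fills 16 rows, while saline replicates 2 and 3 fill 6 each.

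Hnrnpdl (ENSMUSG00000029328, chr5:100033577-100039664, minus strand) encodes hnRNP D-like, a relative of AUF1 whose human transcript is known to be spliced in its 3′ untranslated region into a form removed by NMD. The gene had 5, 4 and 3 events in the morphine libraries, against 4, 6 and 4 in the saline libraries, and the groups overlapped (exact permutation p = 0.7, n = 3 each). Its last exons were split by group. They numbered 1, 2 and 2 in the morphine libraries and 3 in each saline library (exact permutation p = 0.1, n = 3 each, the smallest p possible). Last exons lay below saline in every morphine library in 57 of 14517 genes (0.393%) and above it in 0.365%.

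Hnrnpdl held the 1 event of the 10 genes that was listed in all libraries of 1 group and in none of the other. It was a last exon that starts at the splice site at chr5 position 100035739, listed in 0 morphine and 3 saline libraries. Over all genes, 0.345% of the 128790 events were listed in all saline and no morphine libraries, and 0.321% in all morphine and no saline libraries. The saline catalogues run this exon to position 100033577, over 2163 nt, and its splice site is that of the last exon of Hnrnpdl-205, an annotated NMD transcript. A last exon that starts at position 100034984 was listed in all 6 libraries. The one that starts at position 100036195 was listed in morphine replicates 5 and 6 and in all 3 saline libraries.

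The splice site itself was used in 1 morphine library. Morphine replicate 5 used it as the start of a 105 nt skipped exon (chr5:100035635-100035739), annotated in NMD and retained-intron transcripts. Morphine replicates 4 and 6 listed no event that uses it. A longer exon that runs over the site was listed in all 3 morphine and all 3 saline libraries: an alternative end of 561 nt in morphine replicate 4, the last exon from position 100036195 in the other libraries, and both in saline replicate 2. With first and last exons alone, Hnrnpdl had 3 events in each morphine library and 4 in each saline library. In that count limma gave a log2 ratio of -0.36 and an adjusted p of 5e-06, which rests on counts that did not vary within either group, and the exact permutation p was 0.1 (n = 3 each). Over all genes, limma called 122 in that count.

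Hnrnpa1 (ENSMUSG00000046434, chr15:103240432-103246692, plus strand), a splicing repressor and export factor, had 3 events in every library, which held for no other of the 10 genes. They were the skipping of 1 exon, 1 last exon and 1 first exon, and the first exon was 1 of a pair. The annotated first exon ending at chr15 position 103240528 was listed in morphine replicate 4 and saline replicates 1 and 3. An unannotated one ending at position 103240117 was listed in morphine replicates 5 and 6 and saline replicate 2. Hnrnpa1 has many processed pseudogenes, and how reads with several matches were treated is not given in the sources used here.

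Hnrnpa2b1 (ENSMUSG00000004980, chr6:51460932-51469894, minus strand), whose product sorts RNAs for transport in neurons and oligodendrocytes, varied widely among the saline libraries. It had 5, 3 and 3 events in the morphine libraries, against 3, 10 and 13 in the saline libraries. Saline replicate 1 matched the lower morphine libraries, and saline replicates 2 and 3 lay above every morphine library. The log2 ratio was -0.96 with a standard error of 0.604 and an adjusted p of 0.905 in limma, and the exact permutation p was 0.4 (n = 3 each). Outside first and last exons, the morphine libraries held 1, 0 and 0 events and the saline libraries 0, 7 and 10. Saline replicates 2 and 3 shared the skipping of exons 2 and 9, a 1574 nt exon (chr6:51461920-51463493) that keeps annotated introns near the 3′ end and a 1795 nt exon (chr6:51464428-51466222) that ends with exon 9 and keeps the introns before it. Without saline replicate 1 the groups did not overlap and the log2 ratio was -1.55, while without saline replicate 3 it was -0.58. Over all genes, counts of 1102 did not overlap without saline replicate 1, against 462 with all libraries.

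Hnrnpd (ENSMUSG00000000568, chr5:99955935-99978938, minus strand) had 26 distinct events, the most of the 10 genes, and 17 of them were listed in 1 library. It had 5, 7 and 15 events in the morphine libraries, against 6, 14 and 9 in the saline libraries. The groups overlapped over nearly their whole range, with 1 high library in each (exact permutation p = 0.9, n = 3 each). Each high library held a pair of long exons with no annotated counterpart, listed under several codes: 10569 and 6363 nt in morphine replicate 6, and 9372 and 8764 nt in saline replicate 2. Both AUF1 exons were alternative in most libraries, exon 7 in 6 and exon 2 in 5. Hnrnpd also held the 2 events in at least 4 libraries that the annotation places in NMD or retained-intron transcripts alone. They were a last exon starting at chr5 position 99962612, listed in all 6 libraries, and a first exon ending at position 99976534, listed in 2 morphine and 3 saline libraries. This placement rests on the splice site of the terminal exon alone, not on its length. In morphine replicate 4 the last exon ran over 13160 nt, beyond the annotated gene, against 312 nt in the other libraries.

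Hnrnpc (ENSMUSG00000060373, chr14:52073377-52104028, minus strand), whose tetramers package nascent RNA and bind runs of U, had 12, 11 and 8 events in the morphine libraries, against 12, 8 and 8 in the saline libraries, and 8 of its 13 distinct events were listed in all 6. The groups overlapped (log2 ratio 0.15, standard error 0.24, exact permutation p = 1, n = 3 each). The C1 and C2 ends of exon 4 were listed in every library (chr14:52081828-52081903 and chr14:52081789-52081903). A second exon was listed in all 6 libraries with 3 different ends, at 158, 161 and 182 nt from chr14 position 52075255. A 26 nt exon (chr14:52098015-52098040) outside the coding sequence was skipped in all 6, and its 530 nt form was listed in morphine replicates 4 and 5 and saline replicate 1.

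Hnrnpk (ENSMUSG00000021546, chr13:58391142-58403343, minus strand) encodes a KH-domain protein that binds runs of C. It had 6, 6 and 8 events in the morphine libraries, against 8 in each saline library, so morphine replicate 6 tied with the saline libraries (exact permutation p = 0.4, n = 3 each). Of its 8 distinct events, 6 were listed in all libraries: 3 first exons, 1 last exon, and the skipping of the 72 nt exon 7 and of a 44 nt coding exon (chr13:58397753-58397796). The whole spread came from 1 coding exon with ends of 46 and 170 nt from chr13 position 58393196. Both ends were listed in morphine replicate 6 and in the 3 saline libraries, and neither in morphine replicates 4 and 5. Without morphine replicate 6 the groups did not overlap, and the log2 ratio was -0.39 (-0.26 with all libraries). Leaving out that library, counts of 1003 genes over all genes did not overlap, against 462 with all libraries. No event of Hnrnpk was listed in 1 library alone, as in Hnrnpa1.

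Hnrnpl (ENSMUSG00000015165, chr7:28808541-28822266, plus strand) encodes a protein that binds CA repeats and in human cells regulates its own transcript through a poison exon, an exon whose inclusion leads to NMD. It had 8, 13 and 11 events in the morphine libraries, against 8 in each saline library. Morphine replicate 4 tied with saline, so the groups overlapped (log2 ratio 0.37, standard error 0.189, exact permutation p = 0.4, n = 3 each). Without morphine replicate 4 they did not overlap and the log2 ratio was 0.55, while without morphine replicate 5 it was 0.22. Over all genes, counts of 1040 did not overlap without morphine replicate 4, against 462 with all libraries. First exons numbered 2, 4 and 4 in the morphine libraries and 2 in each saline library. The skipping of a 497 nt exon (chr7:28810672-28811168) was listed in morphine replicates 5 and 6 and in no saline library. Counting the partner codes ending in OFF as well gave 12, 20 and 15 events in the morphine libraries and 11 in each saline library, which do not overlap. Counting events by start and end alone gave 8, 11 and 10 in the morphine libraries and 7 in each saline library, which do not overlap either. Over all genes, 493 did not overlap with partner codes and 441 by start and end, against 462 in the main count. The groups overlapped with annotated events alone (4, 8 and 8 in the morphine libraries, 5 in each saline library) and with exact-boundary codes alone (5, 9 and 8 in the morphine libraries, 5 in each saline library). The last exon listed in morphine replicate 4, at chr7 position 28817609, lay on the opposite strand, and the other 5 libraries listed the annotated one.

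Some retained introns of Hnrnpl were common to every library. All 6 libraries listed the 464 nt exon (chr7:28818461-28818924) that keeps the 111 nt stretch printed above, annotated in the coding transcript Hnrnpl-209. All 6 also listed a 3253 nt exon (chr7:28815280-28818532) that keeps a 3108 nt intron, is absent from GENCODE M21 and counts as 4 events: 2 of retention and 2 of alternative ends with its 73 nt short form.

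Hnrnpm (ENSMUSG00000059208, chr17:33646233-33686860, minus strand), whose product binds GU-rich sites and regulates splicing, had 8, 16 and 9 events in the morphine libraries, against 9, 5 and 7 in the saline libraries. Morphine replicate 5 stood apart and the other libraries overlapped (11 ± 4.36 in morphine, 7 ± 2 in saline, SD, n = 3 each; exact permutation p = 0.3). The log2 ratio was 0.59 with a standard error of 0.356. It was 0.30 without morphine replicate 5, 0.38 without saline replicate 2, 0.78 without saline replicate 1, where the groups did not overlap, and 0.07 with annotated events alone. Counts of 1102 genes over all genes did not overlap without saline replicate 1, against 462 with all libraries. All 4 skipping events and both alternative ends of Hnrnpm were listed in morphine replicate 5, among them an 8 nt coding exon (chr17:33669169-33669176) against a 32 nt form. All 6 libraries listed the retained 117 nt stretch and a 965 nt exon (chr17:33669169-33670133) with a 904 nt intron kept, which is not annotated. Intron retention events numbered 4, 6 and 5 in the morphine libraries and 5, 2 and 3 in the saline libraries.

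Hnrnpu (ENSMUSG00000039630, chr1:178321108-178337797, minus strand) encodes scaffold attachment factor A, which binds chromatin-associated RNA. It had 4 events in each morphine library, against 4, 6 and 5 in the saline libraries, and the groups overlapped at 4 (exact permutation p = 0.4, n = 3 each). A 2069 nt exon (chr1:178333887-178335955) that keeps an 1855 nt intron was listed in all 6 libraries and is not annotated. Without saline replicate 1 the groups did not overlap and the log2 ratio was -0.41, while without saline replicate 2 it was -0.14 (-0.27 with all libraries). Without saline replicate 1, counts of 1102 genes over all genes did not overlap, against 462 with all libraries. The events found in saline alone were 3 with exons of 4165 to 5788 nt in replicate 2 and 1 retained intron in replicate 3. That retained intron lies in the same 4165 nt exon (chr1:178325243-178329407) that replicate 2 listed under alternative ends.

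The 10 genes were compared with all genes by class and by how many libraries listed each event, as a description with no test. Of the 142 hnRNP events, 28.2% were listed in all 6 libraries, against 20.9% of all events, and 43.0% in 1 library, against 50.7%. Of the intron retention events, which can list the same exon under several codes, 7 of 33 (21.2%) were listed in all 6 libraries. The share over all genes was 1.51%. The 7 were 1 in Hnrnph1, 3 in Hnrnpl (2 of them from the same exon), 2 in Hnrnpm and 1 in Hnrnpu, and 3 of the 7 were annotated. Last exons were listed in all 6 libraries in 12 of 22 cases (54.5%), against 32.1% over all genes. First exons, with 8 of 28 (28.6%), lay close to the 29.8% of all genes. Alternative exon ends made up 27.5% of hnRNP events and 13.3% of all events, and first exons 19.7% and 32.8%.

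**Figure D4:**
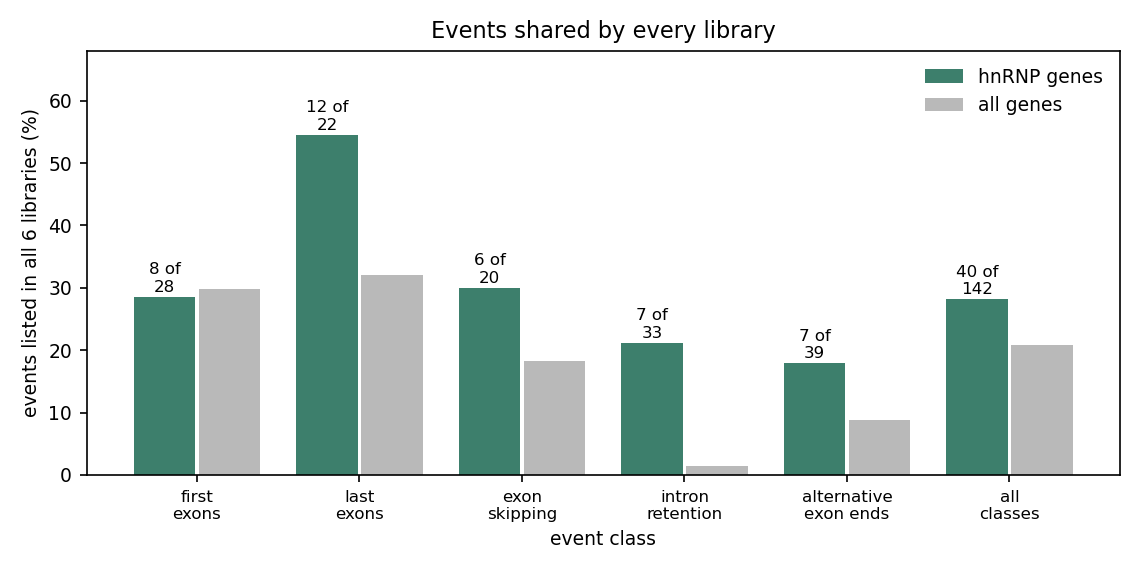
Share of events listed in all 6 libraries, by class, in the hnRNP genes (green, with counts) and in all genes (grey). The vertical axis is the percentage of distinct events of a class. Intron retention events reach 21.2% in the hnRNP genes and 1.51% in all genes, while first exons are at 28.6% and 29.8%.

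Exons under the plain skipping code numbered 15 in the hnRNP genes, and 9 of them (60%) were a multiple of 3 long, against 52.2% of 8445 over all genes. Of the 6 listed in all libraries 3 (50%) were a multiple of 3 long, against 70.3% of 2084 over all genes; among the 3 were Hnrnpd exon 7 and Hnrnpk exon 7. Those that were not were the 50 nt exon of Hnrnph1, the 44 nt exon of Hnrnpk and the noncoding 26 nt exon of Hnrnpc. Across the 10 genes, the morphine libraries held 11, 15 and 16 intron retention events, against 10, 14 and 13 in the saline libraries. Skipping events numbered 9, 15 and 10 in the morphine libraries and 9, 9 and 12 in the saline libraries. First exons numbered 16, 18 and 19 in the morphine libraries and 16, 15 and 15 in the saline libraries, and the groups met at 16. None of the 5 classes, summed over the 10 genes, separated the groups.

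Of the 142 events, 45 were listed in morphine libraries alone, 29 in saline libraries alone and 68 in both groups. A single library listed 61 of the 142, and such events fall in 1 group by construction. The same split was not computed over all genes, so it is no result about the hnRNP genes. The hnRNP events listed in both libraries of a pair, as a share of those listed in either, had a median of 52.7% (51.5% to 53.7%) among the 3 morphine pairs and 62.9% (56.8% to 68.8%) among the 3 saline pairs. It had a median of 52.5% (47.1% to 64.7%) among the 9 pairs of a morphine and a saline library.

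Other genes of the family were read from the same fit. Of 22 further hnRNP family genes, 21 passed the filter, 0 were called by limma and 0 had counts that did not overlap between groups. Their summed events were 133, 121 and 114 in the morphine libraries and 134, 126 and 127 in the saline libraries. The 3 with most events were Pcbp2, Ptbp1 and Hnrnph3, a close relative of Hnrnph1. Pcbp2 had 12, 17 and 11 in the morphine libraries and 24, 13 and 13 in the saline libraries. Ptbp1 had 13, 10 and 11 in the morphine libraries and 8, 13 and 22 in the saline libraries. Hnrnph3 had 12, 11 and 9 in the morphine libraries and 10, 18 and 11 in the saline libraries. All 3 overlapped between the groups. Of 14 genes for NMD factors, all were tested, 0 were called and 0 did not overlap, with summed events of 71, 84 and 51 in the morphine libraries and 58, 56 and 60 in the saline libraries.

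The labelled tissue was checked with marker genes, whose listing shows only that transcripts were assembled. All 13 markers of medium spiny neurons, the main cell type of the nucleus accumbens, were listed in all 6 libraries, and so were all 6 of forebrain glutamatergic neurons, 5 of oligodendrocytes, 4 of astrocytes and 4 of microglia. Counts of 2 of the 39 markers (5.13%) did not overlap between groups, against 3.07% of all genes tested. Rgs9, a regulator of G-protein signalling in striatal neurons, had 5, 6 and 6 events in the morphine libraries and 4 in each saline library. Ccdc39, a gene of motile cilia, had 8, 9 and 11 events in the morphine libraries and 12, 19 and 14 in the saline libraries. Neither passed adjustment in limma (adjusted p of 0.385 for Rgs9 and 0.905 for Ccdc39).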

How the data were processed

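RNA of 3 morphine and 3 saline nucleus accumbens samples was sequenced by the authors. Each deposited file lists alternative transcription and splicing events with gene ID, strand, positions and 1 of 20 type codes. The other values deposited, in a column headed FPKM, are whole numbers at or below 0 and were not used. Not given in the sources used here are the aligner, assembler, event caller, genome build and depth, so no counting interval was computed. Positions were read as GRCm38, where 63.6% of all distinct events lie on GENCODE M21 exons. Of 15939 gene IDs, 15815 matched a symbol there.

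Distinct events (gene, type, splice pattern, strand; codes ending in OFF, which list the partner form, left out) were counted per gene and library. limma 3.58.1 in R 4.3.3 (trend, log2 of events plus 0.5, 15040 genes with a mean of at least 0.5, Benjamini-Hochberg threshold 0.05) was the main test. Its code was also run on simulated counts, drawn at random around the real means (Poisson). That run did not model counts that do not vary within a group. Of the genes tested, 22.8% had the same count in all 6 libraries. An exact two-sided permutation test was run per gene. The 10 genes, the marker lists and the tests were chosen with earlier results of these data known. All 10 genes were named. The rule further named events inside a gene listed in all 6 libraries, in all of 1 group and none of the other, or placed by the annotation in NMD or retained-intron transcripts alone in at least 4 libraries; list genes whose counts did not overlap; and the 3 further family genes with most events. Other events were chosen after their values were seen. Replicate numbers are not shared between groups and no batch is given. Alternatives changed the pseudocount, filter, scaling, trend, event codes and libraries.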

Additional observations from a re-analysis of the deposited data

How the results depend on the processing

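Hnrnph1 had a positive log2 ratio under all 17 alternatives that give one (0.24 to 1.13). Its groups did not overlap under 15 of them, and overlapped with first and last exons alone and with annotated events alone. Many of the 15 could not have come out otherwise. Another pseudocount or filter leaves the counts of a gene unchanged, and leaving out a library cannot make separate groups overlap. limma called 0 of the 10 genes except with first and last exons alone, where it called 1 (Hnrnpdl), and 122 over all genes. The number of hnRNP genes whose groups did not overlap, 1 of 10, was 2 with partner codes counted and 2 by start and end (Hnrnph1 and Hnrnpl in both), 0 with annotated events alone, and 1 to 4 when leaving out each library in turn, with 4 without saline replicate 1. Over all genes the number, 462 in the main count, was 493 with partner codes counted and 441 by start and end. It was 337 with annotated events alone and 961 to 1102 when leaving out each library, with 1102 without saline replicate 1. The 1 hnRNP event listed in all libraries of 1 group and none of the other became 0 without first and last exons, and 1 to 5 when leaving out each library. Log2 ratios changed sign in 5 genes that limma did not call with all codes, and none of the ratios of changed sign passed the threshold. With first and last exons alone they were 0.12 in Hnrnpa2b1 (-0.96 with all codes), -0.16 in Hnrnpc (0.15), 0.19 in Hnrnpd (-0.16) and 0.16 in Hnrnpu (-0.27). Without first and last exons the ratio was 0.53 in Hnrnpdl (-0.20), with annotated events alone 0.16 in Hnrnpu, and when leaving out each library -0.59 to 0.16 in Hnrnpd.

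Over all genes, limma called 96, against 42 without first and last exons and 250 to 285 when leaving out each library. Counts of 462 genes did not overlap, against 818 with equal totals, 256 with first and last exons alone, 303 without them and 961 to 1102 when leaving out each library; with 2 libraries in a group, fewer values have to be separated. The cause of the other shifts was not tested. No paired analysis was possible because the groups share no replicate numbers. With 3 libraries a group and unknown depth, an event missing from a catalogue cannot be told from one too rare to be assembled.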
